A study of Drosophila melanogaster with 4 samples.

Results

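The nuclear-encoded genes of oxidative phosphorylation were followed in heads of adult wild-type *Drosophila*. They were taken by FlyBase symbol: every gene of the count table whose symbol began with ND-, Sdh, UQCR-, COX or ATPsyn, together with *Cyt-c1*, *Cyt-c-p* and *Cyt-c-d*. This rule gave 90 of the 13608 genes, and no measured value entered it. By symbol, 64 of them were subunits of a respiratory complex or the electron carrier cytochrome c. A further 25 were testis-type paralogs, of which 24 carried the suffix L on the symbol of a partner subunit and the last was *Cyt-c-d*. The remaining member, *Sdhaf3*, is named for an assembly factor of complex II. Subunits whose symbols do not follow the rule, such as *blw* for the alpha subunit of ATP synthase, were not members and are described near the end.

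The series held 4 replicates of 1 group, heads of untreated wild-type adults. The labels gave wild type as the genotype of all samples and no strain, sex or exact age. By the study's methods, the flies it calls wild type are w1118. No mutant allele, transgene or treatment was compared. Heads came from snap-frozen flies, and by the study's methods the RNA was taken from the input lysate of its ultraviolet cross-linking protocol. The sample labels name only replicates, whereas the series text calls the wild-type lines independent. What separates the replicates is not clear, so every SD below measures the spread between these 4 libraries and may hold differences between lines.

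Oxidative phosphorylation runs in the inner mitochondrial membrane. Complexes I and II pass electrons from NADH and succinate to ubiquinone, complex III passes them on to cytochrome c, and complex IV to oxygen. Complexes I, III and IV pump protons, and complex V, the ATP synthase, makes ATP as protons flow back. Most subunits are encoded in the nucleus and the rest by mitochondrial DNA. Neurons and photoreceptors have a high demand for ATP. Several of the nuclear genes have duplicates in flies that are used mainly in the male germ line.

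The libraries were made by 3′-seq, which reads the end of a polyadenylated RNA, so the number of reads does not grow with the length of the gene. Levels are given in CPM, the gene's read count over the library total times 1000000. Totals ran from 8753359 counts in replicate 3 to 13434565 in replicate 1. A count of 0 allowed up to 3 counts, or 0.223 to 0.343 CPM by library, which covers counting error only. Every pair of libraries differed by more than sampling noise, with a chi-square over degrees of freedom of 84.0 to 227. Defining markers of the head were present in every library. The 5 neuronal genes summed to 1774 to 2480 CPM, the 8 photoreceptor genes to 27819 to 38282 CPM and the 3 glial genes to 29.7 to 111 CPM. Replicate 1 stood apart for markers of other tissues. The 18 testis genes summed to 303 CPM there and to 10.6, 13.3 and 54.5 CPM in replicates 2, 3 and 4. The lists for accessory gland, midgut and flight muscle were also highest in replicate 1, by 12.7, 6.03 and 6.85 times the mean of the other replicates. With 1 condition there was no contrast between groups, and an exact sign test over 4 replicates cannot reach a p below 1 in 8, so no difference was tested.

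The subunits were abundant and nearly all detected, whereas the testis-type paralogs, except *COX7AL2*, were close to 0. In all, 65 of the 90 members reached 10 counts in each replicate, where 57.0% of all genes did. The other 25 were 23 suffix-L paralogs, *Cyt-c-d* and the complex I gene *ND-B8*. Among the subunits alone, 63 of 64 passed. A mean of at least 100 CPM was reached by 64 members, against 10.2% of all genes, and at least 1000 CPM by 20 members, against 1.39% of all genes. Of these 20, 6 belonged to complex IV, 6 to complex V, 4 to complex I and 4 to complex III. Together the members took 53950 ± 4373 CPM (SD, n = 4), or 5.40% of all counts. In bulk tissue, fewer cells of a type and less RNA per cell cannot be told apart, so these levels are averages over the whole sample. Beside head cells, the samples held RNA of markers of other tissues, most of it in replicate 1.

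**Figure D1:**
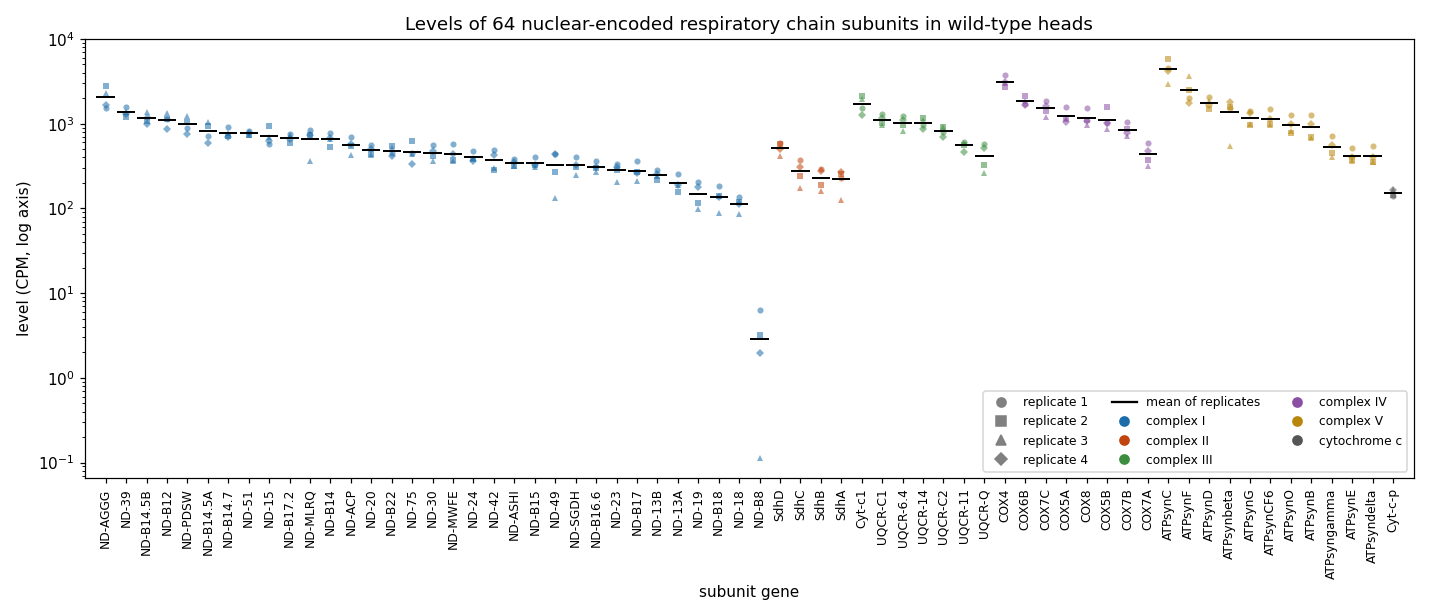
Level of each of 64 subunit genes in CPM on a log axis, grouped by complex and ordered by mean within a complex, with 1 point per replicate and a bar at the mean. All subunits but *ND-B8* have a mean between 113 and 4377 CPM, and *ND-B8* lies at 2.89 CPM.

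The complexes differed in the level of their subunits. The median subunit of complex IV had 1198 CPM, of complex V 1139 CPM and of complex III 1022 CPM, against 452 CPM for complex I and 252 CPM for complex II, and cytochrome c, with 1 subunit gene, had 153 CPM. The median over all genes that reached 10 counts in each replicate was 25.4 CPM. Complex IV ranked first by its median in replicates 1, 2 and 3 and complex V in replicate 4, and complexes III and V changed places between replicates, so these 3 complexes could not be ordered beyond the spread between libraries. Complex I came next in every replicate. Complex II and cytochrome c were last, with their order turned in replicate 3. Summed over all members, complex I, with 39 genes, had 18464 ± 1133 CPM, complex V 15511 ± 1615 CPM, complex IV 11811 ± 1405 CPM, complex III 6692 ± 458 CPM and complex II 1317 ± 258 CPM (SD, n = 4). These sums grow with the number of genes in a complex, which the medians do not.

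Complex I takes electrons from NADH and is the largest of the complexes, with 33 subunit genes among the members. Its most abundant member, *ND-AGGG*, an accessory subunit of the membrane arm, had 1546, 2752, 2312 and 1661 CPM in replicates 1 to 4, a mean of 2067 ± 567 CPM (SD, n = 4). Replicates 2 and 3 lay above replicates 1 and 4. *ND-39*, an accessory subunit at the joint of both arms, followed with 1361 ± 171 CPM. *ND-B14.5B*, in the membrane arm, had 1156 ± 169 CPM, and its range of 980 to 1374 CPM overlapped that of *ND-39*, 1185 to 1588 CPM.

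The 7 catalytic subunits of complex I encoded in the nucleus, which carry the flavin and the iron-sulfur clusters or build the quinone site, spanned 283 to 765 CPM. The median of these was 452 CPM, and that of the 26 accessory subunits was 459 CPM. *ND-51*, which holds the flavin and the NADH site, was the highest of the catalytic subunits, with 814, 730, 743 and 775 CPM. Its ratio of highest to lowest replicate, 1.115, was the smallest of the 65 members that passed the count minimum. The modules of the complex, assigned from general knowledge after the levels were known, also had like medians. The NADH module had 434 CPM, the quinone module 452 CPM and the membrane arm 459 CPM. The range within a module was far wider than the difference between modules, with members of the membrane arm running from 137 to 2067 CPM.

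At the lower end of complex I stood *ND-18* with 113 ± 20.5 CPM and *ND-B8*. *ND-B8*, the counterpart of the accessory subunit NDUFA2 of mammals, had 84, 36, 1 and 21 counts, or 6.25, 3.24, 0.114 and 1.97 CPM. It ranked 8105th of all genes by mean level, and the lowest of the other subunits, *ND-18*, ranked 1248th. In replicate 3 the 95% Wilson interval of *ND-B8* ran from 0.0202 to 0.647 CPM and in replicate 1 from 5.05 to 7.74 CPM. *ND-B8* lies on chromosome 2L, bases 4454626 to 4455207 of dm6, on the plus strand. Its annotated 3′ end falls in an exon of the gene *Gs1l* on the opposite strand, with 71 of its 460 exonic bases shared. *Gs1l* had 2287, 2207, 1581 and 1756 counts. Whether reads of *ND-B8* were lost at this overlap was not tested.

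Complex II, succinate dehydrogenase, is shared with the tricarboxylic acid cycle and is built from nuclear genes alone. The flavoprotein gene *SdhA* had 227, 258, 125 and 272 CPM and the iron-sulfur subunit gene *SdhB* had 295, 190, 160 and 273 CPM. These hydrophilic subunits had means of 220 ± 66.5 and 230 ± 64.8 CPM, and the ratio of *SdhA* to *SdhB* was 0.975 ± 0.274 (SD, n = 4), with *SdhA* above *SdhB* in replicate 2 alone. Of the membrane anchor genes, *SdhC* had 377, 240, 172 and 309 CPM, a range that overlapped those of *SdhA* and *SdhB*. *SdhD* had 590, 582, 414 and 503 CPM, and it was the highest of the 4 in every library. All 4 subunits were lowest in replicate 3 on the scale of library totals, and *SdhD* was lowest in replicate 4 with TMM factors.

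Complex III hands electrons from ubiquinol to cytochrome c. *Cyt-c1*, the heme-bearing subunit that passes the electron on, led the complex with 1536, 2107, 1952 and 1272 CPM. *UQCR-C1* and *UQCR-C2*, the core proteins of the matrix side, had 1117 ± 150 and 824 ± 102 CPM. *UQCR-C1* was the higher of the pair in every replicate, by a ratio of 1.07 to 1.67. The small subunit *UQCR-6.4* had 1031 ± 174 CPM. *UQCR-11* had 559 ± 70.7 CPM and *UQCR-Q* 420 ± 152 CPM, the lowest of the 7 subunits.

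Cytochrome c itself was far below its neighbours in the chain. *Cyt-c-p*, the somatic cytochrome c gene of the fly, had 138, 143, 167 and 165 CPM, with a mean of 153 ± 14.7 CPM (SD, n = 4). *Cyt-c1* was 11.3 ± 2.87 times as high, with ratios of 11.1, 14.7, 11.7 and 7.70 in replicates 1 to 4. The libraries did not overlap, since the lowest value of *Cyt-c1* was 1272 CPM and the highest of *Cyt-c-p* 167 CPM.

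Complex IV, cytochrome c oxidase, passes the electrons to oxygen. *COX4*, which binds at the catalytic core, had 3778, 2673, 2986 and 3078 CPM. *COX6B*, on the side that faces cytochrome c, had 1708, 2119, 1836 and 1642 CPM. *COX7C* followed with 1531 ± 278 CPM. The lower end was formed by *COX7B* with 852 ± 143 CPM and *COX7A* with 439 ± 119 CPM, and *COX7A* was the lowest of the 8 subunits in every replicate.

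Complex V held the member with the highest mean level. *ATPsynC*, the c subunit of the rotating ring in the membrane, had 4563, 5824, 2930 and 4191 CPM and ranked 27th of all genes by its mean. In replicate 3 it was below *ATPsynF*, at 3624 CPM, and *COX4*, at 2986 CPM. The ring holds many copies of this protein in each enzyme, whereas most other subunits are present once. *ATPsynF* followed with 2462 ± 836 CPM and *ATPsynD*, of the stalk that holds the head in place, with 1761 ± 240 CPM. *ATPsynbeta*, the catalytic subunit of the head, had 1548, 1562, 542 and 1802 CPM, so replicate 3 stood well below the others. The ratio of *ATPsynC* to *ATPsynbeta* was 3.60 ± 1.33, with 5.40 in replicate 3 and 2.33 to 3.73 in the others. *ATPsynE* with 414 ± 72.1 CPM and *ATPsyndelta* with 414 ± 92.4 CPM were the lowest, and their ranges overlapped.

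The testis-type paralogs were compared with their partners within each library. *COX7AL2* was the exception among them: it had 678, 500, 422 and 471 CPM, a mean of 518 ± 112 CPM, where its partner *COX7A* had 591, 373, 320 and 473 CPM. The ratio of *COX7AL2* to *COX7A* was 1.15, 1.34, 1.32 and 0.995 in replicates 1 to 4, or 1.20 ± 0.161 (SD, n = 4). It was above 1 in 3 of 4 replicates. *COX7AL2* has 3 exons at bases 2192525 to 2197912 of chromosome 2L, on the minus strand, and lies on another arm than *COX7A*, which is on 3R. Its symbol puts it with the paralogs, and its level in heads put it with the subunits, at rank 331 of all genes.

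The other 23 suffix-L paralogs together had 516, 38, 37 and 57 counts in replicates 1 to 4. Of these counts 79.6% came from replicate 1. Their summed level was 38.4 CPM in replicate 1 and 3.42, 4.23 and 5.34 CPM in replicates 2, 3 and 4. Replicate 1 was 8.88 times the mean of the others, and 7.40 times after TMM scaling. The mean of the sum was 12.8 CPM over all replicates and 4.33 CPM without replicate 1. Among all genes with 1 to 102 counts in total, the range of these paralogs, replicate 1 held 50.4% of the counts and replicates 2, 3 and 4 held 16.9%, 11.0% and 21.7%.

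**Figure D2:**
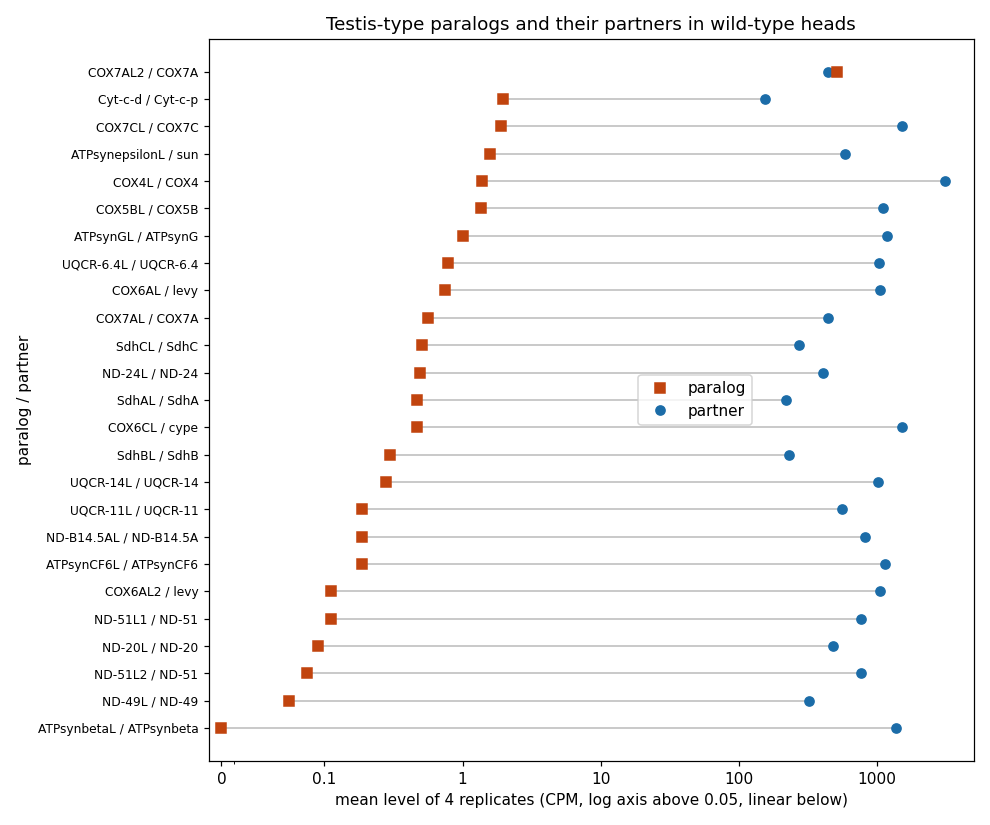
Mean level over 4 replicates in CPM of each testis-type paralog (squares) and its partner (circles), on an axis that is logarithmic above 0.05 CPM and linear below. *COX7AL2* is the only paralog whose square lies beside its partner, and the other 24 paralogs lie at or below 1.95 CPM.

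Pooled over replicates, the 24 paralogs other than *COX7AL2* had from 0% to 1.44% of the counts of their partner, with a median of 0.0604%. Without replicate 1 this median was 0%. Of the 23 suffix-L paralogs, 22 had 0 counts in at least 1 replicate and 12 had counts in replicate 1 alone. Among the 3461 genes with 1 to 102 counts in total, 32.1% had counts in replicate 1 alone. Over all members with counts, 12 of 89 were seen in replicate 1 alone, where 9.39% of all genes with counts were. A count of 0 in some replicate was found for 23 members, where 36.7% of all genes had one.

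*ATPsynepsilonL* was the only suffix-L paralog besides *COX7AL2* with counts in every library, with 27, 6, 20 and 16 counts. Its partner *sun*, the epsilon subunit of the ATP synthase, had 12536, 4804, 1567 and 8405 counts. The pooled share was 0.253%, with an exact 95% interval of 0.197% to 0.320% that covers counting error only. *ATPsynbetaL* was the only member with 0 counts in every library. Against the 62151 counts of *ATPsynbeta*, up to 3 counts over the group of 4 libraries would be 0.00483%. *ATPsynbeta* was 20717-fold above this floor. The upper end of the exact 95% interval of the share was higher, at 0.00594%.

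Most of the other paralogs were seen in replicate 1 and hardly elsewhere. *COX7CL*, a duplicate of *COX7C*, had 100, 2, 0 and 0 counts, and *COX7C* 24976, 15770, 10618 and 17447. The last exons of *COX7CL* and *COX7C*, of 69 and 107 bases, are shorter than a read, and reads were aligned without introns. Whether this lowered their counts was not tested. *COX5BL* had 56, 11, 0 and 3 counts. *COX4L* had 46, 0, 0 and 23 counts and *ND-24L* 19, 0, 0 and 6. Both were seen in replicates 1 and 4, the libraries with the highest testis lists. Like *COX7CL*, other suffix-L paralogs had 0 counts in replicate 4 and some in replicate 2 or 3. They were *UQCR-6.4L* with 31, 9, 0 and 0 counts, *ATPsynGL* with 39, 6, 5 and 0, and *COX6AL* with 22, 0, 12 and 0. Another was *ND-20L*, whose 4 counts all fell in replicate 2. In complex II, *SdhAL*, *SdhBL* and *SdhCL* had 25, 16 and 16 counts in replicate 1, and only *SdhCL* had any elsewhere, 9 in replicate 4. The complex I paralogs *ND-51L1*, *ND-51L2*, *ND-49L* and *ND-B14.5AL* had 3 to 10 counts, all in replicate 1.

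*Cyt-c-d*, the cytochrome c gene known for its role in spermatids, had 73, 11, 12 and 0 counts, or 5.43, 0.989, 1.37 and 0 CPM. Pooled, this was 1.44% of the counts of *Cyt-c-p* (exact 95% interval 1.16% to 1.76%), the highest share of the 24. Without replicate 1 it was 0.477%. *Cyt-c-d* lies 296 bases upstream of *Cyt-c-p* on the same strand, and 305 of its 837 exonic bases are shared with *CG31808* on the opposite strand, which had 3990, 1787, 1431 and 2118 counts.

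Most testis markers were also highest in replicate 1, 15 of the 18 genes of that list. Of all genes that reached 10 counts in each replicate, 35.3% were highest there. Among genes with 1 to 102 counts in total, replicate 1 held 50.4% of the counts. The gene *betaTub85D*, the beta tubulin of the male germ line, had 203, 35, 2 and 12 counts. *Mst87F*, of the sperm tail, had 482, 32, 29 and 110 counts. *Mst84Da* had 1045, 18, 34 and 132 counts. The exceptions were *twe* with 3, 8, 0 and 0 counts, *dj* with 1, 0, 0 and 1, and *aly* with 0 counts in every library. Replicate 1 was 11.6 times the mean of the others for the summed testis list, against 8.88 times for the 23 suffix-L paralogs. The lists of other tissues moved the same way, and the part of any of them in the levels of the paralogs was not tested.

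**Figure D3:**
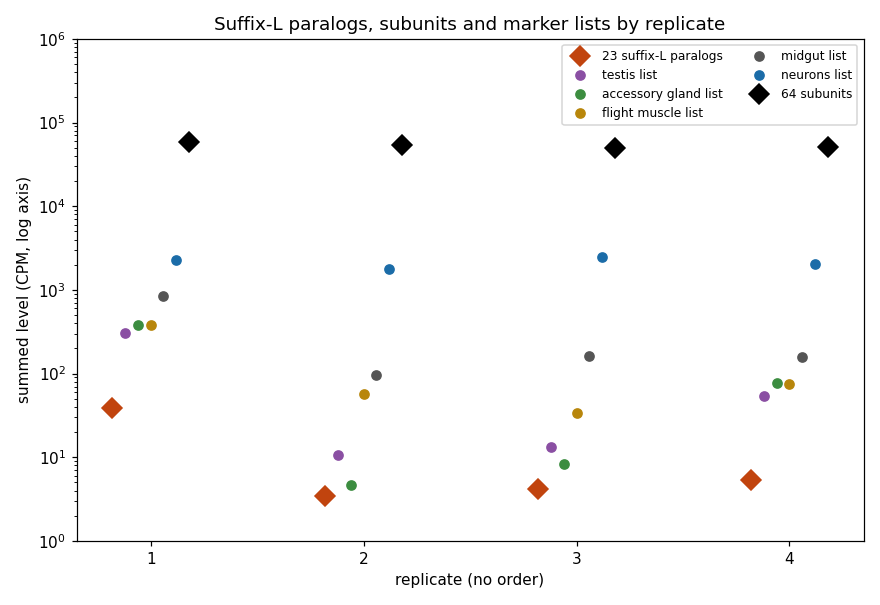
Summed level in CPM on a log axis, by replicate, of the 23 suffix-L paralogs without *COX7AL2*, of the 64 subunits and of the lists for testis, accessory gland, flight muscle, midgut and neurons. The paralogs are at 38.4 CPM in replicate 1 and at 3.42 to 5.34 CPM in the others, while the subunits stay between 49491 and 58824 CPM.

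The paralogs differed from their partners in gene structure and position, which the rule did not use. Of the 25 paralogs, 6 had a single exon, and none of the 22 partner genes did. In 18 of the 25 pairs the paralog had fewer exons than its partner. A total of 10 paralogs lay within the bounds of another protein-coding gene, such as *COX6AL* within *Cyp4aa1* and *ND-51L2* within *Trpm*. In 8 of the 25 pairs the paralog was on the chromosome arm of its partner. Of the partner genes 5 were on the X chromosome, and all 5 had their paralog on an autosome. In 1 pair, *SdhBL* on X with *SdhB* on 2R, the reverse held. The shares of single-exon, nested and X-linked genes over all genes were not computed, so these counts describe the pairs only.

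Tandem copies were close to their partners. *COX5BL* lay 122 bases downstream of *COX5B* and *COX7CL* 281 bases downstream of *COX7C*, both on the strand of the partner. *COX7AL* lay 2625 bases from *COX7A* on the opposite strand. All 647 exonic bases of *COX5BL* are shared with exons of *Trmt6* on the opposite strand, which had 134, 153, 52 and 176 counts. Reads that pass the end of a partner, and reads of an opposite gene where strand was not used in counting, cannot be told apart from those of the paralog in the table.

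Among the 65 members that passed the count minimum, most were highest in replicate 1. This held for 46 members, or 70.8%, where 35.3% of all such genes were highest there. The libraries differed in composition, however, and the count of 46 became 25 with TMM scaling, where 21.4% of all genes were highest in replicate 1. With that scaling replicate 3 was highest for as many members, 25 (38.5%), where 32.3% of all genes were highest in replicate 3. On the scale of library totals, the median log2 deviation of the members from their mean was 0.24, -0.07, -0.21 and -0.02 in replicates 1 to 4, and that of all genes 0.14, -0.11, -0.26 and 0.07. Relative to all genes, the members were at 0.10, 0.04, 0.04 and -0.10 on the log2 scale. These relative values were 0.09, 0.03, 0.04 and -0.09 with TMM factors. The members therefore lay slightly above all genes in replicate 1 and slightly below in replicate 4 under both scalings. A scaling factor moves all genes of a library alike and nearly cancels in these relative values. Their agreement was nearly fixed in advance and does not test the scaling.

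**Figure D4:**
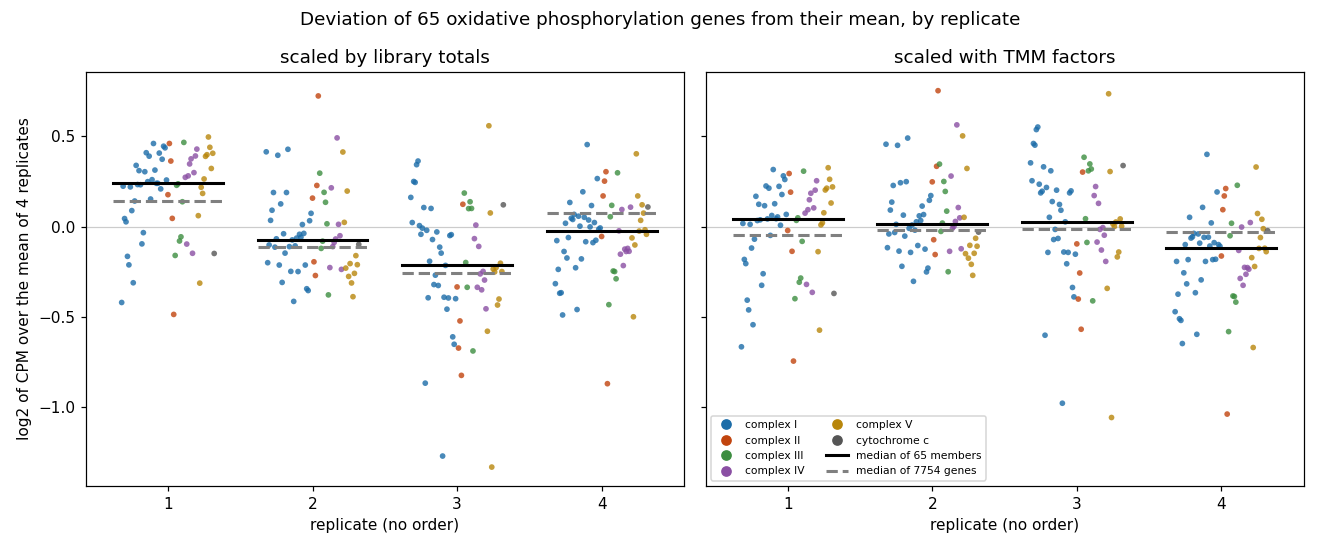
Log2 of the CPM of each of 65 members over its mean, by replicate, scaled by library totals (left) and with TMM factors (right), with black bars at the median of the members and dashed bars at the median of 7754 genes. The black bars follow the dashed bars, within 0.10 on the log2 scale, under both scalings, a difference that the scaling could hardly change.

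The complexes did not move alike. Relative to all genes, complex III was at -0.01, 0.13, 0.35 and -0.32 on the log2 scale in replicates 1 to 4, so it was high in replicate 3 and low in replicate 4. Complex II was at 0.03, 0.27, -0.27 and 0.10, as the median of 5 members that include the assembly factor *Sdhaf3*. In replicate 2 the log2 deviation of *Sdhaf3* from its own mean was 0.72, and those of the subunits ran from -0.27 to 0.23. The value of 0.27 there is therefore not one of the subunits alone. Complex V was at 0.18, -0.10, 0.01 and -0.09, and complex IV at 0.15, 0.04, -0.01 and -0.20. Among the 32 members of complex I the values were 0.09, 0.05, 0.16 and -0.09. The values in replicates 3 and 4 kept their sign for complexes II and III with TMM factors, which nearly cancel in values relative to all genes.

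Members of 1 complex were found with opposite orders of the libraries. In 30 of the 65 members (46.2%) replicates 1 and 4 were both above replicates 2 and 3, where 37.9% of all genes had that order. In 12 members (18.5%) replicates 2 and 3 were both above replicates 1 and 4, where 13.1% of all genes did. These 12 were *ND-15*, *ND-AGGG*, *ND-B12*, *ND-B14.5A*, *ND-B22* and *ND-PDSW* of complex I, *Sdhaf3*, *Cyt-c1*, *UQCR-14* and *UQCR-C2* of complexes II and III, *COX6B* and *ATPsynF*. With TMM factors the counts turned to 11 and 18, where 21.7% and 24.4% of all genes had these orders, so which order was the more common depended on the scaling for the members as for all genes. In complex III, for example, *Cyt-c1* had its highest values in replicates 2 and 3, with 2107 and 1952 CPM, whereas *UQCR-Q* had 580, 323, 261 and 516 CPM and was lowest there.

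The spread of the members between replicates was compared with that of other genes. The highest replicate was more than 2-fold above the lowest in 10 of 65 members (15.4%), where 55.1% of all detected genes were. Among the 1392 genes that averaged 100 CPM or more the share was 33.3%, against 9 of the 64 members at that level. The median ratio of highest to lowest replicate was 1.57 over the members and 2.12 over all genes. The biological coefficient of variation from edgeR, the relative spread between replicates beyond counting noise, had a median of 0.151 over the members. It was 0.308 over all genes tested and 0.248 over those that averaged 100 CPM or more. The cytosolic ribosomal protein genes were close to the members, at 0.170. Without scaling factors the members were at 0.201, the genes that averaged 100 CPM or more at 0.237 and the cytosolic ribosomal protein genes at 0.152, so the order of the last set and the members turned with the scaling. The steadiest member by this measure was *UQCR-C1* at 0.0315, and the least steady *Sdhaf3* at 0.547.

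Among the 65 members that passed the count minimum, *ATPsynbeta* and *ND-49* had the largest ratios of highest to lowest replicate, 3.32 and 3.31. *ND-49*, a catalytic subunit at the quinone site, had 443, 271, 134 and 442 CPM. Both were lowest in replicate 3, and they were the only 2 of the 65 members more than 2-fold below their mean there, where 16.9% of all genes were. Both are also the only subunits on chromosome 4, the small dot chromosome. Of the 69 detected genes of that chromosome, 24 (34.8%) were more than 2-fold below their mean in replicate 3, and their median deviation relative to all genes was -0.46 on the log2 scale. With TMM factors 1 of the 65 members was more than 2-fold below its mean in replicate 3, where 10.2% of all genes and 12 of the 69 genes of chromosome 4 (17.4%) were.

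**Figure D5:**
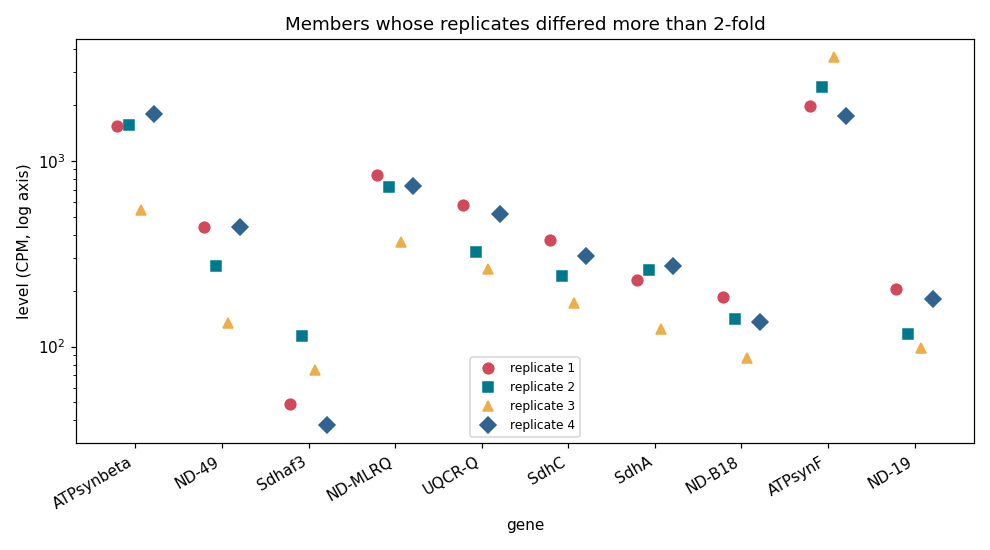
Level in CPM on a log axis of the 10 members whose highest replicate was more than 2-fold above the lowest, with 1 point per replicate. Replicate 3 is the lowest point for 8 of the 10, and *Sdhaf3* and *ATPsynF* are lowest in replicate 4.

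*Sdhaf3*, which in other species helps mature the iron-sulfur subunit of complex II, had the next largest ratio of highest to lowest replicate, 3.01, with 49.2, 114, 75.1 and 37.7 CPM. It was highest in replicate 2, where *SdhB* had 190 CPM, below its mean. *ND-MLRQ* had 841, 726, 365 and 730 CPM. Its mammalian counterpart NDUFA4 has been placed in complex IV, so its place in complex I here follows the symbol. For the other members above a ratio of 2, *UQCR-Q*, *SdhC*, *SdhA*, *ND-B18*, *ATPsynF* and *ND-19*, the ratio was 2.08 to 2.22.

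Overlap with genes on the opposite strand was counted for the members alone, so no share over all genes stands beside it. Exonic bases were shared with such a gene by 33 of the 90, and the annotated 3′ end of 24 members, 21 of them subunits, fell within an exon of one. These 21 subunits had a median of 480 CPM and the other 43 of 681 CPM. Whether overlap lowered the counts was not tested. *UQCR-14*, a small subunit of complex III, shares all of its 523 exonic bases with *CG32576* and had 12989, 12955, 9580 and 9205 counts, where *CG32576* had 223, 149, 54 and 195. *COX6AL2*, with 6 counts, shares 2098 bases with *Ir75d* on its own strand. Its level is therefore uncertain. Reads were aligned without introns, and 4 subunits have a last exon shorter than a read. These had a median of 759 CPM, and the subunits with longer last exons 561 CPM.

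Genes of oxidative phosphorylation with other names were measured beside the members. Of 13 such genes, 12 reached 10 counts in each replicate, where 57.0% of all genes did. Subunits were at the level of the members. *RFeSP*, the Rieske protein of complex III, had 665 ± 89.8 CPM, and *ox*, a small subunit of complex III, 1025 ± 91.7 CPM. For complex IV, *levy* and *cype*, the counterparts of the subunits COX6A and COX6C of mammals, had 1050 ± 274 and 1510 ± 293 CPM. In complex V, *blw* had 2247, 1590, 1106 and 1692 CPM and *sun* 933, 432, 179 and 787 CPM. The ratio of *ATPsynbeta* to *blw*, the catalytic and the alpha subunit that alternate in the head, was 0.689, 0.983, 0.490 and 1.06 in replicates 1 to 4.

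The carrier that exchanges ADP and ATP across the inner membrane is encoded by *sesB* and its neighbour *Ant2*. *sesB* had 4458, 2884, 2084 and 3985 CPM, and its mean of 3353 ± 1072 CPM lay within the spread of *COX4*, at 3129 ± 466 CPM. *Ant2* had 6.32 ± 1.69 CPM. Assembly factors were far lower than subunits. *Scox* and *CIA30*, which act in the assembly of complexes IV and I, had 37.2 ± 7.08 and 35.7 ± 7.23 CPM, and *Surf1* and *sicily* had 9.24 ± 2.21 and 7.44 ± 2.86 CPM. *knon*, known for its part in the mitochondria of spermatids, had 17, 0, 0 and 0 counts, all in replicate 1 like those of 12 suffix-L paralogs.

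Enzymes of the tricarboxylic acid cycle, which feeds NADH and succinate to the chain, were detected throughout. All 10 measured genes passed the count minimum, with a median of 355 CPM. *Mdh2*, the mitochondrial malate dehydrogenase, was the highest with 2537 ± 377 CPM, and *ScsbetaG* the lowest with 34.3 ± 5.67 CPM. Of the 6 regulators, 5 passed that count. *TFAM*, which packages mitochondrial DNA, had 36.5 ± 3.16 CPM, and *ewg*, the fly counterpart of the nuclear respiratory factor of mammals, 46.6 ± 9.53 CPM. *Ets97D*, the fly GABP alpha, had 59, 22, 3 and 10 counts.

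Other sets of proteins that form large complexes gave a scale for these levels. The 71 genes of mitochondrial ribosomal proteins had a median of 39.2 CPM and a highest mean of 305 CPM, so all lay below the median of complexes I, III, IV and V. The 82 detected genes of cytosolic ribosomal proteins had a median of 2128 CPM. For 20 detected genes of the vacuolar proton ATPase the median was 148 CPM, where the 63 detected subunits of oxidative phosphorylation had 665 CPM. Between libraries the ribosomal sets and the members lay on opposite sides of all genes in replicate 1. Relative to all genes the cytosolic ribosomal protein genes were at -0.21 and the mitochondrial ones at -0.12 on the log2 scale in replicate 1, where the members were at 0.10 and the genes of the vacuolar proton ATPase at 0.11. The signs were the same with TMM factors, which nearly cancel in values relative to all genes.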

How the data were processed

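Heads of adult wild-type flies were sequenced by 3′-seq (QuantSeq REV) in 4 replicates of 1 group. After trimming, the authors aligned the reads to dm6 with STAR 2.6.1b, not allowing introns, and deposited the raw featureCounts counts per gene without normalization. The annotation, the strand setting and the handling of multimapping reads for these counts are not given in the sources used here. The study names an Ensembl annotation for its RNA-seq data only.

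CPM were computed over the library totals (8753359 to 13434565). Symbols were matched for 13512 of 13608 gene identifiers, and positions came from Ensembl release 115 on dm6. Levels are means ± SD over replicates, with 95% Wilson intervals for a level in 1 library and exact binomial intervals for the ratio of paralog to partner. For the spread between replicates, edgeR 4.0.16 (R 4.3.3) fitted an intercept-only model with TMM factors and no shrinkage between genes. It used the genes that reached 10 counts in each replicate and was tested on simulated data. A gene was called detected by that count minimum. Alternatives were TMM and DESeq2 1.42.0 size factors, other count minimums, and leaving out each replicate. Tables were handled in Python 3.11.15 with scipy 1.17.1 and pandas 2.3.3.

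The members, gene lists and named genes were chosen with earlier results of these data known. Named were the paralogs with their partners, the 3 highest and 2 lowest subunits of each complex, the Sdh subunits, the cytochrome c genes and *Cyt-c1*, the 5 members with the largest ratio of highest to lowest replicate, members with 0 counts in some replicate and a mean of at least 10 counts, and the highest genes of the other pathway lists. Further genes, such as those of the 12 with the order of replicates 2 and 3 above 1 and 4, those with overlaps, and marker genes, were named after their values were seen. Protein identity and promoter motifs, although planned, were not analysed here.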

Additional observations from a re-analysis of the deposited data

Results flagged for a closer look

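Within the 4 libraries, 15 of 68 values had 1 library far from the other 3, with a gap to the nearest of the others above the critical share of the range given by Dixon, where chance flags about 3.4 of 68 for values without zeros. In 13 of the 15 the other 3 libraries were all at 0, so any count in the last library sets them apart, and the number of flags cannot be read against chance. In 14 of the 15, replicate 1 was the high library. The summed level of the 23 suffix-L paralogs without *COX7AL2* was 38.41 CPM there. Among single paralogs, *COX7CL* was at 7.443 CPM in replicate 1, *COX7AL* at 2.233 CPM, and *COX6CL* and *SdhAL* at 1.861 CPM each. *SdhBL* was at 1.191 CPM and *UQCR-14L* at 1.117 CPM. *ATPsynCF6L*, *ND-B14.5AL* and *UQCR-11L* were at 0.7443 CPM each, *COX6AL2* and *ND-51L1* at 0.4466 CPM each, *ND-51L2* at 0.2977 CPM and *ND-49L* at 0.2233 CPM. The exception was *ND-20L*, at 0.3597 CPM in replicate 2 and 0 in the others. These values share libraries and are not independent of each other. The 13 paralogs other than *COX7CL* had counts in 1 library only. The testis list was at 303 CPM in replicate 1 and at 10.6 to 54.5 CPM in the others, and its part in these values was not tested.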

How the results depend on the processing

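Levels kept within the spread between replicates under both other scalings for all 62 named members (124 of 124 values). Each level is a mean over the same 4 libraries, which a change of scaling can move only little. This count was therefore nearly fixed in advance and does not test the scaling. The median deviation of the members depended on the scaling, since library totals and TMM factors place all genes differently. In replicate 1 it was 0.239 on the log2 scale with library totals, 0.043 with TMM and 0.046 with DESeq2 size factors. In replicate 2 it turned from -0.074 to 0.012 with TMM, and in replicate 3 from -0.215 to 0.026 with TMM and 0.053 with DESeq2 size factors. The count of members highest in replicate 1, an alternative added after seeing the data, went from 46 to 25 with TMM and 24 with DESeq2 size factors. The median spread was 0.1507, with 0.2009 without scaling factors, 0.1643 for genes that averaged 10 counts or more, and 0.1453 to 0.1669 on leaving out each replicate.

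Replicate 1 decided the paralogs. On leaving out each replicate, the median share of the partner's counts ran from 0% to 0.0752%, the lower value without replicate 1. The summed level of the 23 suffix-L paralogs, also added after seeing the data, ran from 4.327 to 15.99 CPM. The level of 23 of the 62 named members moved by more than 1.5-fold on leaving out 1 replicate, 22 of them paralogs and the last *ND-B8*, at 1.77 CPM without replicate 1. Below about 0.3 CPM a level rests on 3 counts or fewer in a library, so depth limits what can be said of most paralogs. No paired analysis was possible because all 4 libraries belong to a single group.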
